A study of Mus musculus with 6 samples.

Results

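The 10 core genes of the circadian clock were examined in the mouse pituitary: Arntl, Clock and Npas2 of the positive limb, and Per1, Per2, Per3, Cry1, Cry2, Nr1d1 and Nr1d2 of the negative limb. Their probes were taken by name, through the RefSeq accession that the array gives for each probe. No value entered that rule, but the genes were chosen with earlier results of these data known. Each gene had 1 probe with 1 spot per array, and all 10 passed the filter on dim probes, among 26887 genes and features tested. The study compared virgin females without the histone demethylase Jmjd2a (now named Kdm4a), written Jmjd2a-/- and here KO, with wild-type Jmjd2a+/+ littermates, here WT. All 6 mice were 8 weeks old, on a C57BL6 background, and had their oestrous cycle started by used bedding of a stud male (the Whitten effect), after which the pituitary was taken at 24 h. There were 3 arrays per genotype, each from the pituitary RNA of a separate animal. Neither the hour of the day at collection nor the deleted part of Jmjd2a was stated in the sources used.

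The clock is a feedback loop of transcription. ARNTL (also called BMAL1) pairs with CLOCK, or with its relative NPAS2, and the pair switches on the Per and Cry genes, whose proteins then return to the nucleus and repress the pair. NR1D1 and NR1D2 (the REV-ERB receptors) form a further loop that represses Arntl, and Per1 and Per2 are also known as genes that respond quickly to hormones and to cAMP. Clock genes cycle over the day in most tissues, pituitary included, so a single time of collection shows 1 point of each cycle.

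The loop is written in short DNA motifs, and 6 of the 9 matches found near the members' start sites are shown, those of the E-box, the D-box and the ROR/REV-ERB element and 1 of the cAMP element cores. RefSeq promoter windows, from 250 bases before to 50 bases after a start site, held 13 windows for 9 of the 10 genes (GRCm38.p6). Per2 had no window and was not searched. Both strands were searched for the E-box CACGTG bound by the ARNTL pair, the D-box TTANGTAA bound by the PAR bZIP factors and NFIL3, the cAMP response element TGACGTCA, its shorter core TGACG, which every full element also holds, and the ROR/REV-ERB element. Capitals mark the motif, and sequences run 5′ to 3′ on the gene's strand.
Per1 E-box, chr11:69098763-69098808, plus strand: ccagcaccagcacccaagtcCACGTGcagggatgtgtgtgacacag
Per1 cAMP element core, the second start site, chr11:69100000-69100044, plus strand: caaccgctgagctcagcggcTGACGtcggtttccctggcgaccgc
Cry1 E-box, chr10:85185089-85185134, minus strand: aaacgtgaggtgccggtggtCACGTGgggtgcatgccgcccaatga
Per3 D-box farther from the start, chr4:151044843-151044890, minus strand: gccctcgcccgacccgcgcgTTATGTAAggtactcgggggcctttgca
Per3 D-box nearer the start, chr4:151044796-151044843, minus strand: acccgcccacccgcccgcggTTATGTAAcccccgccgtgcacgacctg
Arntl ROR/REV-ERB element, chr7:113207529-113207555, plus strand: gaaggcagAAAGTAGGTCAgggacgga

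The E-box was in the windows of Per1 and Cry1 and in 7.15% of all 32851 windows. The D-box was in the Per3 window, with 2 matches, and in 2.32% of all windows. The ROR/REV-ERB element was in a window of Arntl and in 0.384% of all windows. No match to these motifs was found in the windows of Clock, Npas2, Nr1d1 and Nr1d2. The core TGACG was in windows of 3 members, Per1, Cry1 and Cry2, and in 20.8% of all windows, whereas the full element TGACGTCA was in 0 members' windows and in 1.79% of all. These are matches of letters in a short window, and the arrays measured no binding.

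Values are log2 signals relative to the 75th percentile of the same array, so a value of 1 is a signal at double that percentile. A level compares the same probe between arrays and says nothing of 1 gene against another, since probes differ in how well they bind. The 75th percentile of signal ran from 171.3 to 313 intensity units, and 34634 to 40567 of 55681 probes were well above background on an array. Markers of the tissue (Prl, Gh, Pomc and Lhb) were well above background on all 6 arrays. The single probe used for Kdm4a gave 2.14, 1.90 and 1.85 in WT and 1.45, 1.20 and 1.36 in KO, a log2 fold change of -0.62 ± 0.14 (SE) that was not called (limma, adjusted p = 0.237). Without knowing the deleted part, this probe does not check the genotype.

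No core clock gene was called between KO and WT at an adjusted p under 0.05 (limma, adjusted over all 26887 features), and 0% of all features were called. At an unadjusted p under 0.05 there were 3 of the 10, Clock and Per1 with higher values in KO and Npas2 with lower ones. Of all features, 12.8% had such a p, 3.89% with higher and 8.92% with lower values in KO. The same 3 genes were those whose KO and WT arrays did not overlap, 2 higher and 1 lower, against 20.6% of all features, 7.14% higher and 13.5% lower. Which members had such a p also depended on the scaling. After quantile normalization or median centring they were Clock, Per1, Per2 and Cry1, all higher in KO. The split of features by direction moved with the scaling: 69.6% of those at an unadjusted p under 0.05 were lower in KO here, 42.9% after quantile normalization, 22.9% after centring on the median, 46.8% in the authors' value table and 79.5% with no filter on dim probes. The members' median log2 fold change was 0.26 and their median absolute one 0.34, beside -0.08 and 0.19 over all features. The members' median was 0.0078 after normexp background correction, 0.13 without WT replicate 3, 0.081 without KO replicate 3 and 0.43 after centring on the median. Centring each array on its median in place of the 75th percentile moved the median of all features to 0.10, and the members' values moved up with it. The authors' value table gives 6 of the 10 members, and from its values Per1 had a log2 fold change of 0.99 and Clock one of 0.36, also not called.

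**Figure D1:**
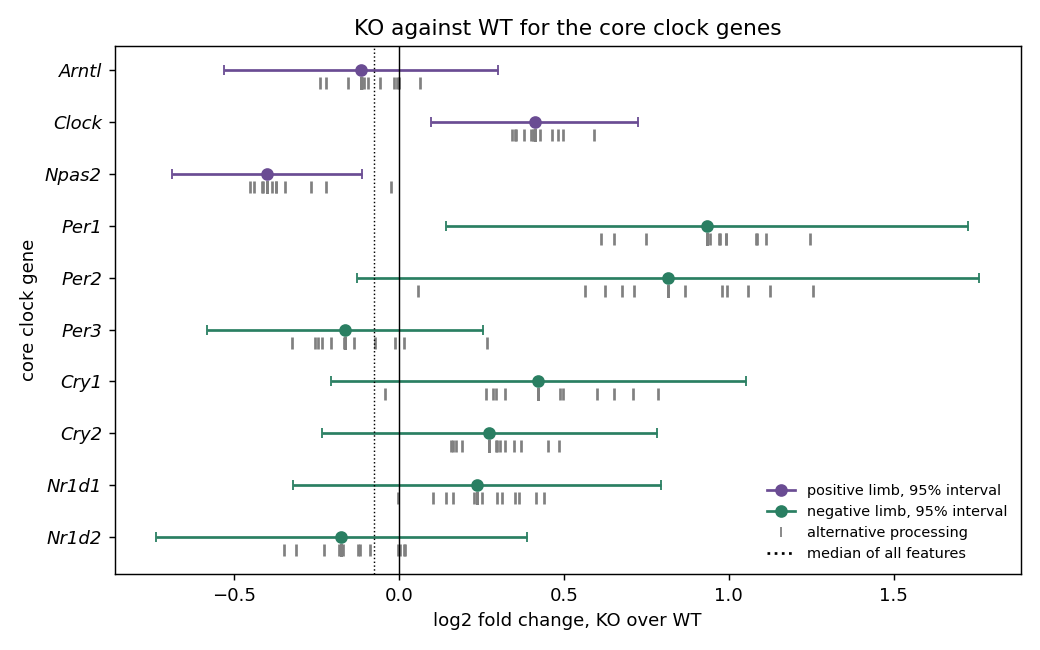
Log2 fold change of each core clock gene, KO over WT, with its 95% confidence interval from limma (3 arrays per group). Clock and Per1 lie above 0, Npas2 lies below 0, and the intervals of the other 7 genes include 0.

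Clock, the DNA-binding partner of ARNTL and an acetyltransferase, read 0.19, 0.44 and 0.29 in WT and 0.85, 0.69 and 0.61 in KO. The lowest KO array lay 0.17 above the highest WT array. The group means were 0.31 ± 0.13 and 0.72 ± 0.12 (SD, n = 3), a log2 fold change of 0.41 ± 0.13 (SE), or 1.33-fold, with an adjusted p of 0.334. Npas2, which can stand in for CLOCK, read -3.94, -4.08 and -4.13 in WT and -4.34, -4.50 and -4.50 in KO. All 3 KO arrays lay below all 3 WT arrays, by at least 0.21, and the log2 fold change was -0.40 ± 0.12 (adjusted p = 0.319). This probe was dim, at 10.3 to 18.5 intensity units, and before scaling its groups overlapped, as did those of Clock and Per1. After quantile normalization its log2 fold change was -0.02, and after normexp background correction it was -0.27.

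Arntl, the member without which the loop stops, read 1.36, 1.15 and 0.88 in WT and 1.23, 0.81 and 1.01 in KO. The groups overlapped. The means were 1.13 ± 0.24 and 1.01 ± 0.21 (SD, n = 3) and the log2 fold change was -0.12, with a 95% interval from -0.53 to 0.30 and an adjusted p of 0.772. After centring on the median it was 0.063.

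**Figure D2:**
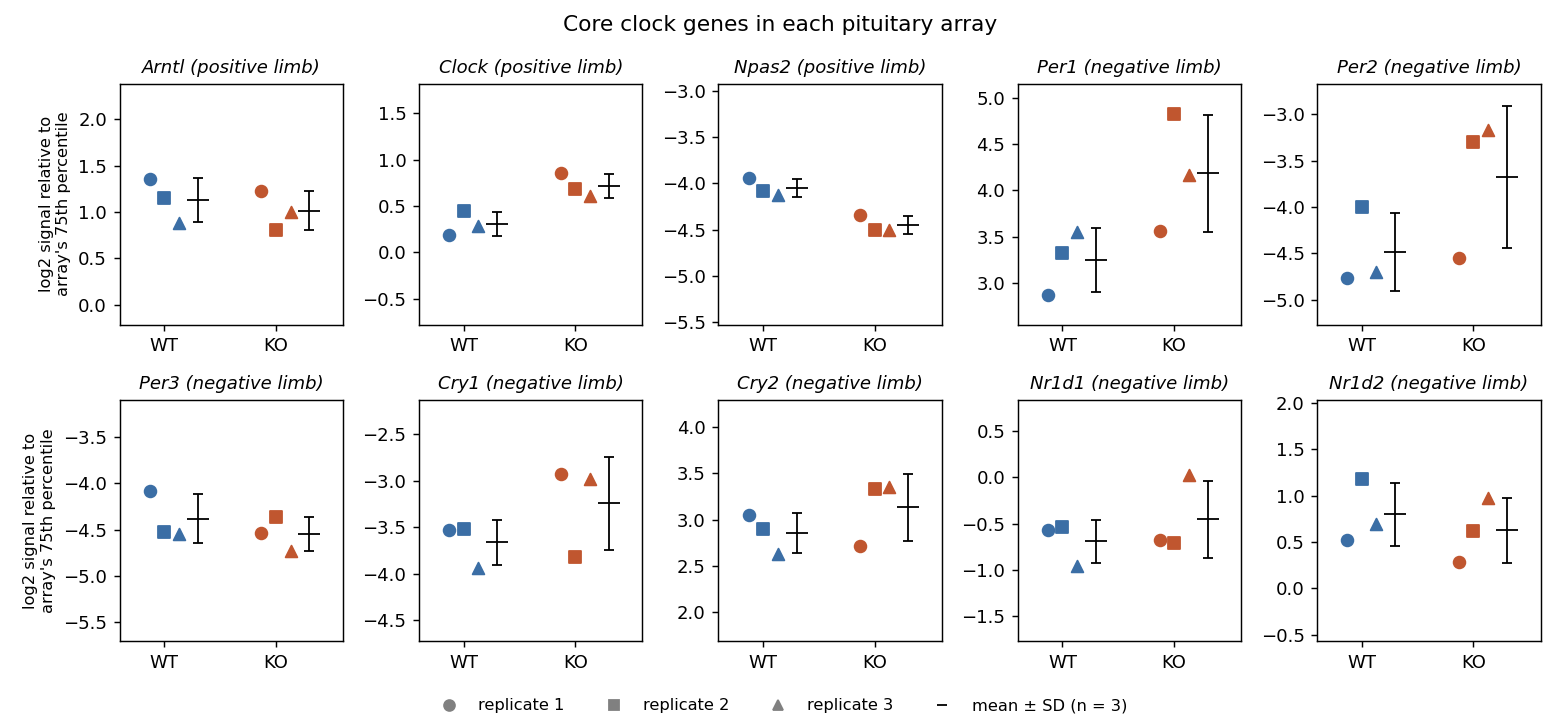
Log2 signal relative to the array's 75th percentile for the 10 core clock genes in each of the 3 WT and 3 KO arrays (1 point per array, with the group mean and SD). In Clock, Per1 and Npas2 the groups do not overlap, for Per1 by only 0.013.

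Per1, the Period gene best known for rapid induction, read 2.88, 3.32 and 3.55 in WT and 3.56, 4.83 and 4.16 in KO. Its groups were apart by only 0.013, since KO replicate 1 sat at the level of WT replicate 3 while the other KO arrays were well above. The means were 3.25 ± 0.34 and 4.18 ± 0.63 (SD, n = 3), a log2 fold change of 0.93 ± 0.33 (SE), or 1.91-fold, with a 95% interval from 0.14 to 1.73 and an adjusted p of 0.353. This was the largest fold change among the 10 members as scaled here, but Per2 had a larger one after quantile normalization, without WT replicate 2, without KO replicate 1 and in 1 row of the slide, and Cry1 without KO replicate 2, where Per1 was at 0.61. Per the file headers, replicates 1 and 3 of both groups lay in 1 row of the slide and replicate 2 of both in the other. Within the first of these rows the log2 fold change of Per1 was 0.65, and within the other, with 1 array per group, it was 1.503. The same values for Clock were 0.50 and 0.24, and for Npas2 -0.39 and -0.43.

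Per2, the Period gene whose protein is a rate-limiting repressor of the loop, read -4.77, -4.00 and -4.70 in WT and -4.55, -3.29 and -3.17 in KO. KO replicates 2 and 3 were above every WT array, and KO replicate 1 lay between WT arrays. The log2 fold change was 0.82 ± 0.40 (SE), with a 95% interval from -0.13 to 1.76 and an adjusted p of 0.426. The probe was at 6.29 to 33.8 intensity units and was well above background on 2 of 3 WT and 3 of 3 KO arrays. After normexp background correction the log2 fold change was 0.06. Per3, the Period gene least needed for the rhythm, read -4.08, -4.52 and -4.55 in WT and -4.54, -4.37 and -4.73 in KO. The groups overlapped, with a log2 fold change of -0.16 and an interval from -0.58 to 0.25 (adjusted p = 0.679). It was 0.27 after quantile normalization and 0.015 after centring on the median.

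Cry1, a cryptochrome that represses the ARNTL pair directly, read -3.54, -3.52 and -3.94 in WT and -2.92, -3.82 and -2.99 in KO. KO replicates 1 and 3 were above all WT arrays and KO replicate 2 was among them. The log2 fold change was 0.42 ± 0.27 (SE), with an interval from -0.21 to 1.05 and an adjusted p of 0.508. The probe was dim, at 12.6 to 38.5 intensity units, and after normexp background correction the log2 fold change was -0.043. Cry2, its paralogue with a similar role, read 3.05, 2.90 and 2.63 in WT and 2.71, 3.33 and 3.35 in KO. The log2 fold change was 0.27 ± 0.21 (SE), with an interval from -0.23 to 0.78 and an adjusted p of 0.581. KO replicates 2 and 3 were the highest arrays, and KO replicate 1 was below WT replicates 1 and 2.

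Nr1d1, a haem-binding repressor of Arntl, read -0.57, -0.54 and -0.96 in WT and -0.68, -0.71 and 0.03 in KO. KO replicate 3 alone was high. The log2 fold change was 0.24 ± 0.23 (SE), with an interval from -0.32 to 0.79 and an adjusted p of 0.655, and without KO replicate 3 it was -0.0021. Nr1d2, which overlaps with Nr1d1 in function, read 0.52, 1.17 and 0.69 in WT and 0.28, 0.61 and 0.97 in KO. Its log2 fold change was -0.17, with an interval from -0.74 to 0.39 and an adjusted p of 0.746. It was 0.0048 after centring on the median.

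To set the limbs against each other, each gene was centred on its mean over the 6 arrays and averaged within its limb. The positive limb stood at 0.09, 0.06 and -0.10 in WT and 0.14, -0.11 and -0.07 in KO. The negative limb stood at -0.19, -0.01 and -0.30 in WT and -0.14, 0.25 and 0.40 in KO. The positive minus the negative limb was 0.28, 0.07 and 0.21 in WT and 0.28, -0.36 and -0.47 in KO. KO replicates 2 and 3 were below all WT arrays, and KO replicate 1 was at the level of WT replicate 1. The means were 0.18 ± 0.11 and -0.18 ± 0.40 (SD, n = 3), and their difference of -0.37 was smaller than the KO spread. It was -0.23 without KO replicate 3, -0.60 without KO replicate 1, -0.21 from the genes in the authors' value table, and -0.15 after normexp background correction.

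**Figure D3:**
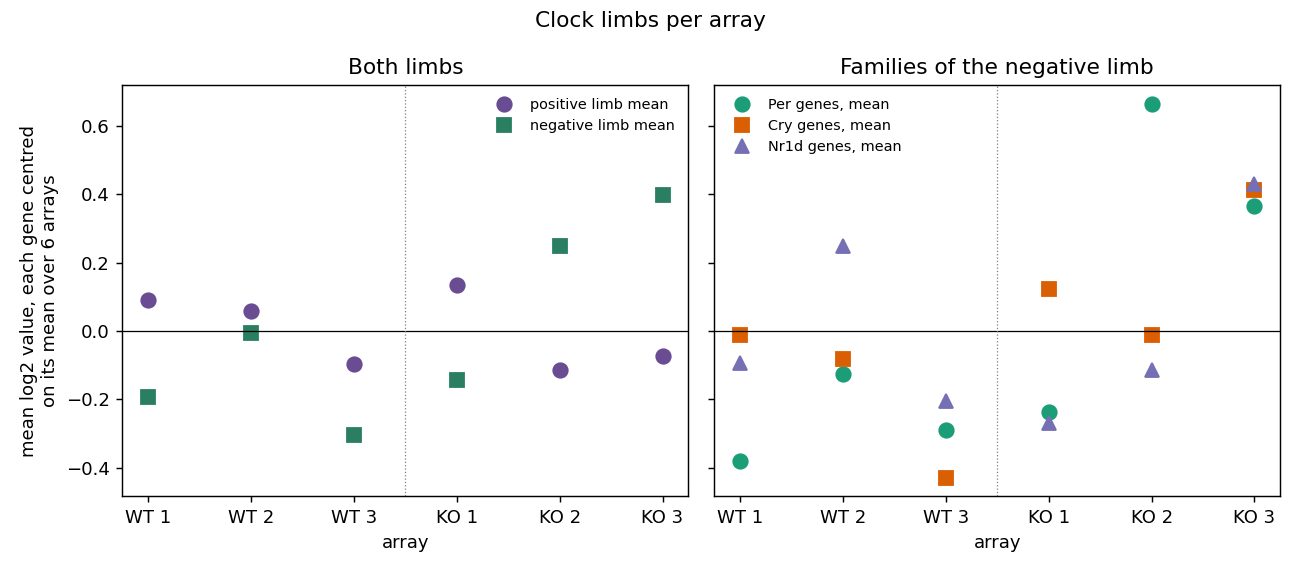
Mean centred log2 signal of the positive limb (3 genes) and the negative limb (7 genes) in each of the 6 arrays. The means of the Per, Cry and Nr1d genes are shown apart. In the negative limb KO replicate 1 lies among the WT arrays, and KO replicates 2 and 3 lie above them.

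Within the negative limb the Per genes stood at -0.38, -0.12 and -0.29 in WT and -0.24, 0.66 and 0.36 in KO. The Cry genes stood at -0.01, -0.08 and -0.43 in WT and 0.12, -0.01 and 0.41 in KO. The Nr1d genes stood at -0.09, 0.25 and -0.20 in WT and -0.27, -0.12 and 0.43 in KO. Their differences between the groups' means were 0.53, 0.35 and 0.03. The order of the Per and Cry genes turned without KO replicate 2, at 0.33 and 0.44, and in the slide row of replicates 1 and 3, at 0.40 and 0.49. After normexp background correction they were 0.28 and 0.14. The difference of the Nr1d genes was -0.18 without KO replicate 3. Without Per1 and Per2, which were picked out after their values were seen, the negative limb differed by 0.12, but by 0.0072 without KO replicate 3, 0.015 without WT replicate 3 and 0.026 after normexp background correction. KO replicate 3 and WT replicate 1 were each the highest array for 3 members, and WT replicate 3 and WT replicate 1 each the lowest for 3. The members highest in KO replicate 3 were all in the negative limb.

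**Figure D4:**
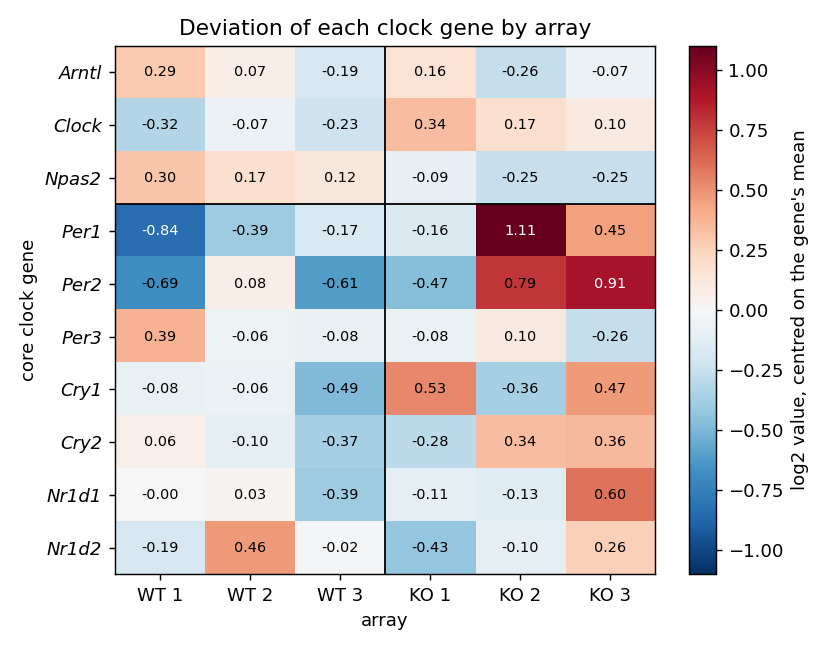
Log2 signal of each core clock gene centred on its mean over the 6 arrays, by array. Per1 and Per2 are lowest in WT replicate 1 and high in KO replicates 2 and 3, and Clock is higher in all 3 KO arrays.

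The other genes of the loop and its outputs were taken from lists, and none was called. Of 19 tested regulators of the loop (kinases, ubiquitin ligases, ROR receptors and cofactors), 13 had log2 fold changes above 0 and 6 below. Their median was 0.06, and 2 had an unadjusted p under 0.05. Of all features, 39% were above 0, 12.8% had such a p and 7.14% were higher in KO without overlap. Usp2, a deubiquitinase that acts on PER1 and ARNTL, read 1.76, 1.77 and 1.68 in WT and 2.26, 2.51 and 2.44 in KO, without overlap. Its log2 fold change was 0.67 ± 0.12 (SE, adjusted p = 0.224). Ncor1, the corepressor used by the REV-ERB receptors, had 0.60 ± 0.19 (adjusted p = 0.336) by its brightest probe. A different probe of Ncor1 gave 0.60 and the remaining one -0.43, so its probes disagreed. Hdac3, the deacetylase bound by NCOR1, had -0.40 ± 0.17 (adjusted p = 0.395).

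Of the 6 output factors, 3 had values above 0 and 3 below, with a median of 0.17. Among all features, 39% were above 0 and 13.5% were lower in KO without overlap. Dbp, an activator that binds the D-box, read 3.46, 3.79 and 3.13 in WT and 3.49, 3.69 and 4.41 in KO. Only KO replicate 3 stood above the WT arrays, as for Nr1d1, and the log2 fold change was 0.40 ± 0.28 (adjusted p = 0.538). Hlf, of the same family, had 0.43 ± 0.17 (adjusted p = 0.376). Bhlhe41, an E-box repressor also called DEC2, was lower in all 3 KO arrays, at -0.76 ± 0.19 (adjusted p = 0.273), at -0.36 after normexp background correction and at -0.20 in the authors' value table. Its other probe gave -0.37 ± 0.20. The 6 related demethylases of the KDM4 and KDM5 families split 3 above and 3 below 0, with a median of 0.01 and 0 at an unadjusted p under 0.05. Kdm4d had -0.69 ± 0.29 (adjusted p = 0.389), Kdm5b 0.15 ± 0.12 (0.588) and Kdm4b 0.12 ± 0.12 (0.644). The Kdm4d probe was well above background on 2 of 3 arrays in each group, and its value was -0.25 after quantile normalization.

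Per1 and Per2 respond to acute signals, and 3 lists of such responses were read beside them. These lists were chosen with earlier results of these data known. Of 12 genes listed for acute cAMP or light type induction, 6 had values above and 6 below 0. Among those above were the signal transducers Creb1, Crtc1 and Crtc2, at 0.08, 0.21 and 0.18, which are not themselves induced genes. The median of the list was -0.37, and 5 genes had an unadjusted p under 0.05, all lower in KO. Ier2 had -1.81 ± 0.15 (SE, adjusted p = 0.0774), Dusp1 -2.31 ± 0.29 (0.123) and Fos -3.77 ± 0.49 (0.128), and all 3 are immediate early genes. Of 10 glucocorticoid responsive genes, 9 had values above 0, with a median of 0.29 and 4 at an unadjusted p under 0.05, all higher. Over all features, 10491 of 26887 had values above 0. Of these 26887, 3.89% were higher and 8.92% lower at an unadjusted p under 0.05. Klf9, a transcription factor gene, had 0.56 ± 0.13 (adjusted p = 0.240), Fkbp5, a cochaperone of the glucocorticoid receptor, 0.38 ± 0.13 (0.347), and Zbtb16 0.73 ± 0.29 (0.376). Of 6 tested heat shock genes, 5 had values above 0, with a median of 0.73 and 3 at an unadjusted p under 0.05. The chaperones Hspa1a and Hsph1 had 2.11 ± 0.23 and 1.47 ± 0.16 (adjusted p = 0.0932 for each), and Dnajb1 had 1.23 ± 0.21 (0.215). Hspa1a was at 1.11 after normexp background correction. Hspa1a has a near-identical copy, Hspa1b, and a probe may bind both.

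**Figure D5:**
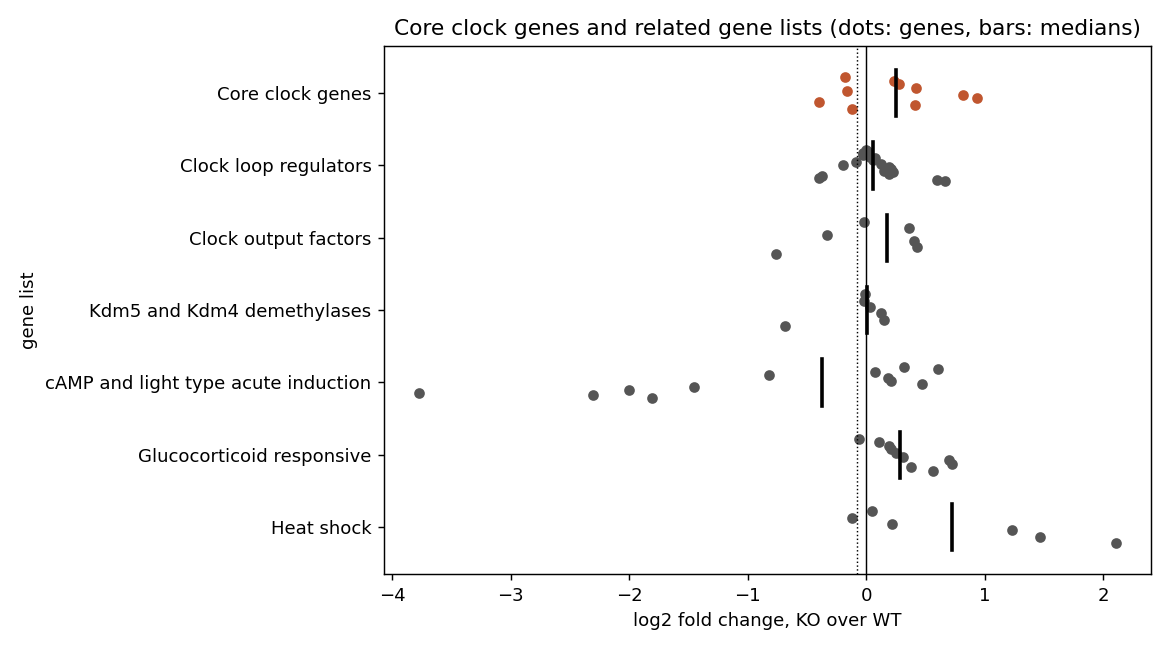
Log2 fold change, KO over WT, of the tested members of each list beside the core clock genes (1 point per gene, with the median). Medians run from -0.37 for the acute induction list to 0.73 for the heat shock list, and no gene was called.

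In whole tissue, fewer cells of a type and less RNA per cell cannot be told apart. The summed linear level of 4 markers of dividing cells was 2.12, 3.09 and 9.91 in WT replicates 1, 2 and 3. In KO it was 0.77 to 1.22, with log2 fold changes of 4 of 4 genes below 0. The level of 5 neutrophil markers was 2.38, 1.94 and 14.2 in WT replicates 1, 2 and 3, and 1.21 to 1.73 in KO. It was far the highest in WT replicate 3. Of these genes, 5 of 5 were below 0 and 0 had an unadjusted p under 0.05. Ngp was well above background on 1 of 3 WT and 2 of 3 KO arrays, and Ltf on 2 of 3 WT arrays. Of all features, 39% had log2 fold changes above 0. Lactotrope markers summed to 446 to 775 and 449 to 544, and gonadotrope markers to 38.6 to 110 and 46.3 to 77.1. Erythroid markers summed to 288 to 406 in WT and to 511, 162 and 225 in KO replicates 1, 2 and 3. KO replicate 1, the KO array nearest WT for Per1 and the limb difference, lay above every WT array here. KO replicates 2 and 3 lay below them all. The erythroid groups thus overlapped, and 0 of the 3 genes had an unadjusted p under 0.05. The lactotrope and gonadotrope markers ordered the arrays otherwise. The part of cell makeup in the clock genes' values was not tested.

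The genes closest to the per-array profile of the negative minus the positive limb were sought among 15316 others, by the root mean square distance of centred log2 values over the 6 arrays. They were Pop4, a subunit of RNase P, at 0.055, Trmt61b, a mitochondrial tRNA methyltransferase, at 0.069, and Tent5b at 0.087. Their log2 fold changes were 0.28 ± 0.20, 0.46 ± 0.21 and 0.37 ± 0.17 (SE, adjusted p = 0.554, 0.408 and 0.401). With 6 arrays and so many candidates, such closeness is a description of these arrays.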

How the data were processed

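Pituitary RNA of 6 mice (3 WT, 3 KO) was hybridised to single-colour Agilent arrays, which shared a slide and a scan per the file headers. The deposited spot files hold intensity values that Agilent Feature Extraction 11.0.1.1 had background-subtracted and detrended, per the file headers, with no scaling between arrays. The authors' deposited values are log2, for 29154 spots, with array medians of 8.253 to 8.265 and no centring of genes. Limma is named in the submitters' processing notes, without the normalization applied. Here log2 intensity minus each array's 75th percentile was used, after leaving out control spots and outliers. The filter kept 36739 of 55681 probes, those that 3 or more arrays marked well above background, and the brightest probe stood for a gene. Symbols came from RefSeq (27656 probes matched). Limma's lmFit and eBayes (version 3.58.1, in R 4.3.3 and with data.table, version 1.17.8) compared KO with WT by a two-sided test. P-values were adjusted by Benjamini-Hochberg, and a call is an adjusted p under 0.05. The script was tested on simulated data. Scores over limbs carry no p. The number of arrays limits the precision.

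The members and lists were chosen with earlier results of these data known. Named genes were the members, Kdm4a, up to 3 genes of smallest p per list, and the 3 closest profiles. Alternatives covered background correction (normexp, offset 50), scaling, the authors' values, filters, probes per gene, variance models, blocks, slide rows and leaving out each array.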

Additional observations from a re-analysis of the deposited data

How the results depend on the processing

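No core clock gene was called in any alternative that tested it, which were 19 of the 20 for 6 genes, 18 for Npas2, Per3 and Cry1 and 17 for Per2. Slide row 2 alone, with 1 array per group, gave values and no test. As processed for the results above, 0 features were called and 3445 had an unadjusted p under 0.05. Of all features, 24 were called after normexp background correction, 19 after median centring and 27 in the authors' value table. With a filter on all arrays 11 were called, and with a variance trend and robust fit 27. Of the other lists' genes, 6, 5, 6, 3 and 4 were called under those 5 settings in that order. Leaving out 1 array gave 0 to 1 called features, 0 to 1 called list genes, 3 to 5 core genes without overlap, 1 to 4 core genes at an unadjusted p under 0.05 and 1969 to 5508 features at that p. Without WT replicate 2 that last count was 5508, without KO replicate 2 it was 2160 and without KO replicate 3 it was 1969. The 4 core genes came without KO replicate 1, where 698 features were higher and 1751 lower at such a p. The 1 core gene came without KO replicate 3. In slide row 1 alone 5 core genes did not overlap. Groups of fewer arrays overlap less readily, and the share of all features without overlap was not counted with arrays left out. These counts without overlap are therefore not a result about the core genes.

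Clock stayed at 0.34 to 0.59 on the log2 scale (0.24 in slide row 2 alone), with an unadjusted p under 0.05 in 18 of 19 tests. Per1 ran from 0.61 to 1.25 outside slide row 2, in 14 of 19 tests, and lost it without WT replicate 1, WT replicate 2, KO replicate 2 or KO replicate 3 and in slide row 1 alone. Npas2 ran from -0.45 to -0.02, in 11 of 18 tests, and lost it after normexp, quantile normalization and median centring, with the robust fit, in slide row 1 alone and without KO replicate 2 or KO replicate 3. Values turned sign as follows. After normexp Cry1 was -0.043. After quantile normalization Per3 was 0.27. After median centring Arntl was 0.063, Per3 0.015 and Nr1d2 0.0048. In slide row 1 alone Nr1d2 was 0.019. In slide row 2 alone Per3 was 0.15, Cry1 -0.30, Nr1d1 -0.17, Hdac3 0.085 and Dbp -0.10. Leaving out 1 array, Nr1d2 ran from -0.35 to 0.014, the latter without WT replicate 2, and Nr1d1 from -0.0021, without KO replicate 3, to 0.36. The causes were not tested. Same-numbered WT and KO arrays had deviations correlated at 0.15, -0.179 and -0.0835, so the numbers were not taken to pair them. The replicate block called 0 core genes, with 4 of them and 2864 features at an unadjusted p under 0.05, and not every array correlated best with its own number. Signal near background limits Npas2, Per2, Per3, Cry1 and Kdm4d.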
